A study of Homo sapiens with 15 samples.

Results

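The histone genes of the count table were followed across proliferating and RAS-senescent fibroblasts. Members were taken by gene name: every row whose Ensembl identifier carries a symbol of the H1, H2A, H2B, H3 or H4 gene clusters, of the numbered H1 genes, of H2AZ1, H2AZ2, H2AX, H3-3A, H3-3B, MACROH2A1 or MACROH2A2, or an older histone name. The rule took 83 of 57736 rows, of which 35 were replication-dependent genes, 13 were variant genes and 35 were pseudogenes. At least 1 tag was counted for 45 of them, namely 27 replication-dependent genes, 11 variant genes and 7 pseudogenes, and 38 rows were at 0 in every library. The filter on low counts kept 18 replication-dependent genes, 11 variant genes and 2 pseudogenes among 13516 tested genes. A gene can pass that filter through the group where it is high, so the tested genes are not a sample of all members. No replication-dependent H3 gene passed it.

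The cells were IMR90 human lung fibroblasts, and each of the 5 groups had 3 libraries of 4917661 to 7763084 tags. Control cells carried a retrovirus without insert and were transfected with siRNA that has no target, and RAS cells carried a retrovirus expressing RAS and were given that same siRNA. In the other 3 groups RAS cells were transfected with an siRNA against METTL14, a subunit of the m6A RNA methyltransferase, and were infected with a lentivirus that was an empty vector (the knockdown group) or carried METTL14, either wild-type or mutated to R298P (both called add-back groups). Transfection began on day 4 of retroviral expression, was repeated a day later together with the lentivirus, and RNA was collected 48 h after that. One label field of the series names the knockdown a knockout and the add-backs knock-ins, whereas the protocol describes siRNA and lentivirus. METTL14 itself stood at 21.2 ± 2.11 CPM (tags per 1000000 normalised tags; SD, n = 3) in control, 22.0 ± 3.66 in RAS and 6.07 ± 2.88 in the knockdown, and at 545 ± 32.0 and 945 ± 80.4 in the wild-type and R298P add-backs. HRAS, the RAS gene checked, stood at 57.8 ± 5.28 CPM in control and 40.2 ± 4.14 in RAS (edgeR log2 -0.52, adjusted p = 0.0036). The RAS insert was therefore not seen as a rise in HRAS tags, and the reason was not tested. Fibroblast marker sums were 10550 to 10728 CPM in control and 17943 to 22816 in the RAS groups, and the epithelial genes CDH1, KRT5 and KRT14, the endothelial genes CDH5 and ERG and the leukocyte genes CD3E and LYZ were at 0 throughout. Other genes of those lists had tags: the epithelial list of 7 summed to 119 to 128 CPM in control, 34.9 to 52.7 in RAS, 78.7 to 89.0 in the knockdown, 70.7 to 80.8 in the wild-type add-back and 62 to 69.7 in the R298P add-back, mostly from KRT18, KRT19 and KRT8, while no library exceeded 1.22 CPM for the endothelial list or 2.63 CPM for the leukocyte list, whose CD14 had 26 tags in each add-back. Separate cultures are not stated for the 3 libraries per group, and p-values here measure the spread between libraries, which may be technical.

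Histones pack DNA into nucleosomes, built from H2A, H2B, H3 and H4, and H1 binds the linker between them. Replication-dependent histone genes sit in clusters, are transcribed in S phase and normally end not in a poly(A) tail but just after a 3′ stem-loop, which is bound by SLBP. Variant histones are made throughout the cell cycle from ordinary polyadenylated mRNA and replace the standard histones at particular places. Proliferation stops in oncogene-induced senescence. QuantSeq libraries are primed with oligo-dT and give about 1 tag per transcript near its 3′ end, so no length correction is made between genes. A replication-dependent transcript enters them through a poly(A) end or an A-rich stretch, and transcripts that end at the stem-loop are largely missed. The values below therefore describe the polyadenylated or oligo-dT-primed part of these mRNAs. That part can differ between genes, so tags do not rank replication-dependent genes by their amount of mRNA.

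The stem-loops of 6 replication-dependent genes that gave tags, and of the variant gene H2AX, are shown because the stem-loop marks the place where such mRNAs are normally cut. They come from GENCODE 29 transcripts of the GRCh38 assembly, are printed 5′ to 3′, and have the 16 bases of the stem-loop in capitals.
HIST2H2AA3: ctcaaaaGGCTCTTTTCAGAGCCacccacg
H2AC6: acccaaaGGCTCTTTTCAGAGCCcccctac
H2BC21: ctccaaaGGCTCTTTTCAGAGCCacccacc
H2BC5: tcccaaaGGCTCTTTTAAGAGCCacgcatg
H2BC4: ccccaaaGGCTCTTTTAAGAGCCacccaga
H4C8: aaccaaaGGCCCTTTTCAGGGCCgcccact
H2AX: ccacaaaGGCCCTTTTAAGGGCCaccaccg

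In GENCODE 29 an exact match to the stem-loop consensus lies in the 3′ UTR of 43 of 19591 protein-coding genes (0.219%). Among the tested histone genes 9 of 18 replication-dependent genes and 1 of 11 variant genes, H2AX, had one. The annotation also carries these genes past the stem-loop, by 35 bases in HIST2H2AA3, 39 in H2BC5, 630 in H4C8, 1114 in H2AC6 and 1729 in H2BC21. The ends of the longest model of each are shown next, with the poly(A) signal AATAAA in capitals. In 4 of them that model is the one that runs past the stem-loop, whereas the H2BC5 end belongs to a second model, whose 3′ UTR of 384 bases holds no stem-loop.
HIST2H2AA3: cgttttcaAATAAAagagttgttaatgctg
H2AC6: agcctggcatgaggtAATAAAaggtaatgc
H2BC21: gttattAATAAAgttaccaattaatttaaa
H4C8: aggtgAATAAAatcaggtcactcttctgct
H2BC5: taattAATAAAatctgcggagaattgtaaa

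A signal (AATAAA or ATTAAA) lay in the last 40 bases of an annotated coding transcript for 10 of the 18 tested replication-dependent genes and for 9 of the 11 tested variant genes. In H4C11 the AATAAA stands before the stem-loop, not after it. For 6 of the 18, H2BC12, H1-1, H1-2, H1-3, H1-5 and H2AC20, the gene model ends at the stop codon and shows no 3′ UTR at all. For the remaining pair the ends are shown because they hold neither a complete stem-loop nor a signal. The H1-4 model stops after the first 13 of the 16 stem-loop bases, which are in capitals, and the H4C3 model ends in an A-rich run, whose richest 20-base window is in capitals and holds 18 A.
H1-4: gcccaacacaacccaaaGGCTCTTTTCAGA
H4C3: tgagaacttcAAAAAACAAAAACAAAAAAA
Of all protein-coding genes, 9.83% have a window of 20 bases with at least 18 A somewhere in a transcript. These models are GENCODE's. Which annotation lies behind the deposited counts is not stated in the sources at hand.

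The first comparison asks what oncogenic RAS did to histone tags. Histone rows together held 0.395% ± 0.00348 of all counts in control and 0.300% ± 0.0105 in RAS (SD, n = 3), and members of both classes were called in both directions. Of the 18 tested replication-dependent genes, 6 were called higher and 7 lower (adjusted p below 0.05, edgeR's quasi-likelihood test with Benjamini-Hochberg adjustment over all 13516 genes). Across all tested genes 45.9% were called in this comparison, 24.0% higher and 21.9% lower. The median log2 change of the 18 was -0.18, with a range from -5.95 to 1.67, against -0.00 for all genes. Among the 11 tested variant genes 3 were called higher and 4 lower, with a median of -0.06. The share of genes called was 13 of 18 and 7 of 11. No test of these shares against the background was made. The keratin genes KRT18 (57.2 ± 2.31 CPM in control, 21.4 ± 2 in RAS, log2 -1.41, adjusted p = 1.66e-10) and KRT19 (51.1 ± 7.56 and 10.2 ± 3.69 CPM, log2 -2.31, adjusted p = 3.25e-09) fell alongside, and their part in the histone differences was not tested.

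H4C3 (ENSG00000197061, formerly HIST1H4C) encodes histone H4 and had the most tags of the replication-dependent genes in proliferating cells. Its level was 584, 548 and 475 CPM in the control libraries, 52.3, 46.3 and 43.8 in RAS, 87.6, 62.0 and 77.0 in the knockdown, 84.7, 85.8 and 90.8 in the wild-type add-back and 75.5, 73.1 and 93.9 in the R298P add-back. All control libraries lay far above every RAS library, and every knockdown library lay above every RAS library. H4C3 fell 11.3-fold with RAS (log2 change -3.49, SE 0.12, adjusted p = 2.97e-21).

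H2BC12 (ENSG00000197903, formerly HIST1H2BK), an H2B gene, went the other way. It stood at 205, 225 and 257 CPM in control, 363, 431 and 442 in RAS, 269, 385 and 360 in the knockdown, 322, 316 and 289 in the wild-type add-back and 326, 340 and 247 in the R298P add-back. The RAS libraries were all above control, while the knockdown libraries overlapped RAS. H2BC12 rose 1.80-fold with RAS (log2 change 0.85, SE 0.15, adjusted p = 3.81e-04). H4C3 made up 47.2% ± 2.80 of replication-dependent tags in control and 6.41% ± 1.05 in RAS, whereas H2BC12 made up 20.3% ± 3.38 and 55.2% ± 2.75. The replication-dependent gene with the most tags was thus a different one in the 2 groups.

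**Figure D1:**
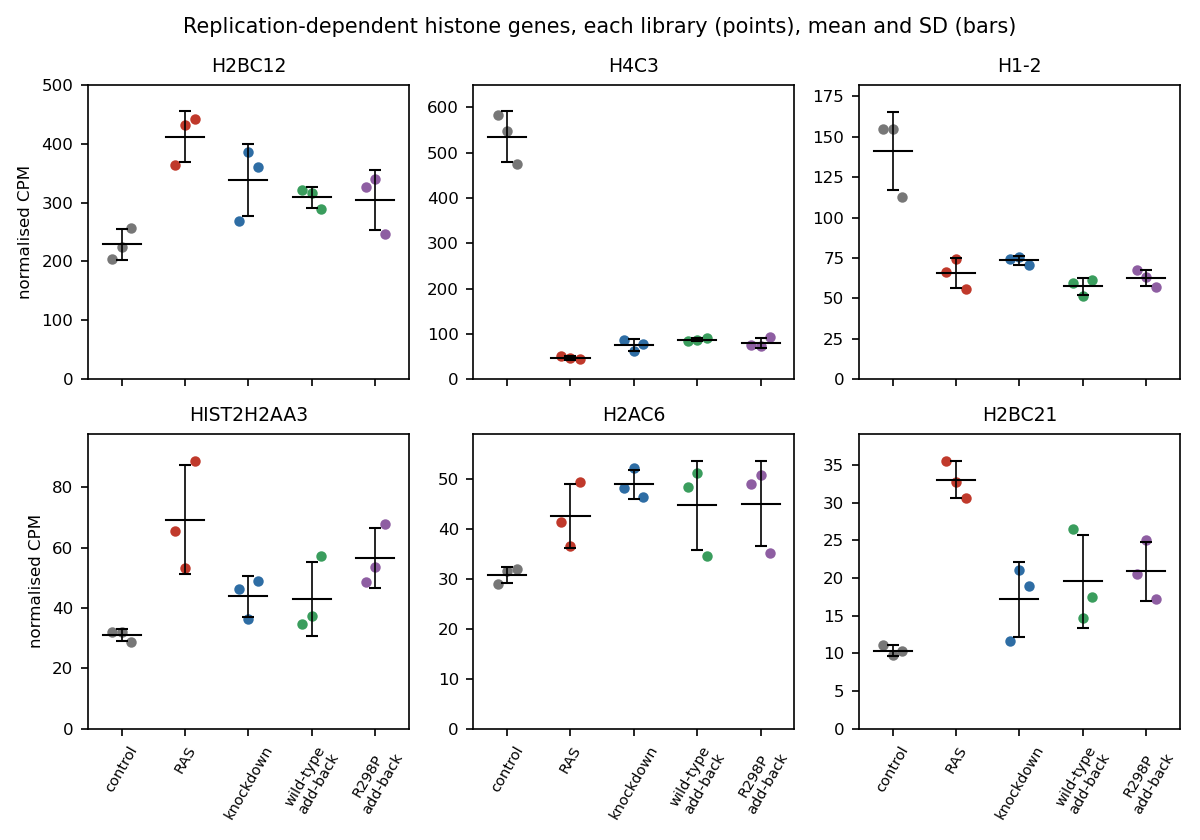
Normalised CPM (vertical axis, from 0) of the 6 replication-dependent genes with the highest mean level, in the 5 groups. Points are libraries, horizontal bars are means and whiskers are SD. H4C3 and H1-2 are highest in control, while H2BC12, HIST2H2AA3, H2AC6 and H2BC21 are lowest there.

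Other genes of both clusters, on chromosomes 1 and 6, were higher with RAS as well. HIST2H2AA3, an H2A gene that belongs to a pair of near-identical copies, had 32.2, 32.0 and 28.9 CPM in control, 65.5, 53.4 and 88.9 in RAS, 46.3, 36.3 and 49.1 in the knockdown, 34.6, 37.3 and 57.1 in the wild-type add-back and 48.5, 53.5 and 67.9 in the R298P add-back. RAS libraries were all above control and above the knockdown, and the rise with RAS was 2.23-fold (log2 1.16, SE 0.19, adjusted p = 2.72e-05). H2BC21 (formerly HIST2H2BE), an H2B gene, had 11.1, 9.72 and 10.3 CPM in control, 35.6, 32.8 and 30.7 in RAS, 11.6, 21.1 and 18.9 in the knockdown, 26.5, 14.7 and 17.5 in the wild-type add-back and 20.5, 25 and 17.2 in the R298P add-back. Every RAS library was above every library of the other groups. With RAS it rose 3.18-fold (log2 1.67, SE 0.23, adjusted p = 3.09e-07), the largest rise among the 18.

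H2AC6 (formerly HIST1H2AC), which encodes H2A, had 28.9, 31.6 and 31.9 CPM in control, 41.5, 36.7 and 49.4 in RAS, 48.2, 52.2 and 46.5 in the knockdown, 48.5, 51.2 and 34.6 in the wild-type add-back and 49.1, 50.8 and 35.3 in the R298P add-back. The groups did not overlap between control and RAS, and the knockdown overlapped RAS. The rise with RAS was 1.38-fold (log2 0.47, SE 0.16, adjusted p = 0.0180), and it lost its call without control library 1 or without RAS library 3. H2BC5 rose from a mean of 15 to 26.7 CPM (adjusted p = 0.00119) and H4C8 from 7.57 to 13.8 (adjusted p = 0.0242), the latter losing its call without control library 1 or without RAS library 2 or 3.

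The tested replication-dependent linker histones, H1-1 to H1-5, all fell with RAS. H1-2 (formerly HIST1H1C), the one with the most tags, had 155, 155 and 113 CPM in control, 66.1, 74.4 and 56.1 in RAS, 74.4, 75.6 and 70.6 in the knockdown, 59.8, 51.6 and 61.1 in the wild-type add-back and 67.4, 63.0 and 57.2 in the R298P add-back. No library of the RAS-derived groups reached control, and the fall with RAS was 2.15-fold (log2 -1.11, SE 0.12, adjusted p = 2.66e-09). H1-3 went from 40.3 ± 2.77 to 5.67 ± 1.53 CPM, H1-4 from 19.9 ± 2.11 to 1.79 ± 0.253 and H1-5 from 21.4 ± 0.686 to 0.621 ± 0.299, falls of 7.14-fold, 11-fold and 32.2-fold (adjusted p = 1.18e-09, 3.61e-09 and 1.57e-09). H1-1 had 147 tags over the control libraries and 2 over the RAS libraries, a ratio of 72.7 with a 95% exact interval of 19.8 to 606 that covers counting error only.

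A variant linker histone moved the opposite way. H1-10 (formerly H1FX), which is made from polyadenylated mRNA, had 122, 105 and 124 CPM in control, 175, 158 and 210 in RAS, 129, 93.4 and 131 in the knockdown, 108, 117 and 144 in the wild-type add-back and 120, 119 and 135 in the R298P add-back. Its RAS libraries were above those of every other group, and it rose 1.55-fold with RAS (log2 0.63, SE 0.13, adjusted p = 2.66e-04).

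The makeup of the replication-dependent H1 tags differed as well. H1-2 held 63.0%, 62.9% and 56.7% of the tags of H1-1 to H1-5 in the control libraries and 90.3%, 90.6% and 85.1% in RAS. Between control and RAS the mean share of H1-3 went from 17.5% ± 0.995 to 7.83% ± 2.69, that of H1-4 from 8.69% ± 1.02 to 2.47% ± 0.586, that of H1-5 from 9.41% ± 1.5 to 0.857% ± 0.425 and that of H1-1 from 3.51% ± 1.23 to 0.152% ± 0.138 (SD, n = 3). In each of these shares the 3 RAS libraries lay outside the range of the 3 control libraries. For a single value, 3 libraries against 3 cannot give an exact 2-sided permutation p below 0.1, so the shares are given as values.

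**Figure D2:**
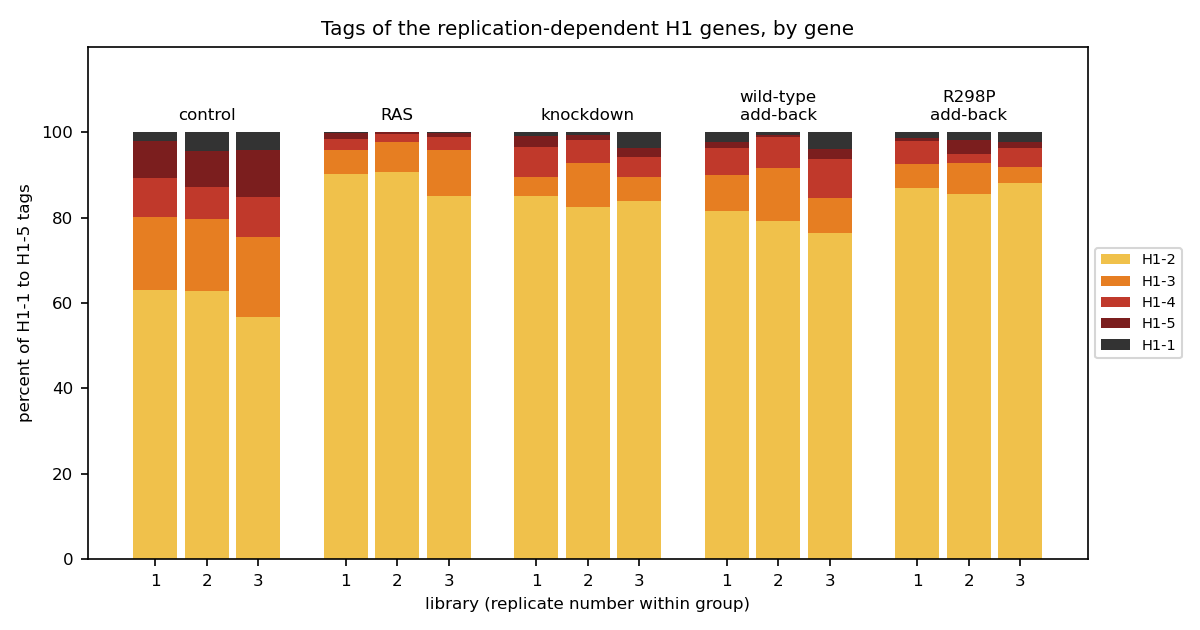
Percent of the tags of H1-1 to H1-5 (vertical axis) that each of the 5 genes held in each of the 15 libraries (horizontal axis, replicate number within group). H1-2 holds 56.7% to 63.0% in control libraries and 85.1% to 90.6% in RAS libraries.

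Of the core variants, H3-3A was called higher with RAS and H2AZ1, H2AZ2, H2AX and MACROH2A2 lower, while H3-3B, H3-5, MACROH2A1 and H2AJ were not called. H3-3A and H3-3B encode the same H3.3 protein, which can also be laid down outside S phase. H3-3A had 587, 581 and 618 CPM in control, 765, 774 and 795 in RAS, 708, 631 and 720 in the knockdown, 760, 740 and 778 in the wild-type add-back and 689, 698 and 746 in the R298P add-back. RAS libraries were all above control, and H3-3A rose 1.31-fold (log2 0.39, SE 0.06, adjusted p = 2.68e-06).

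H3-3B had 701, 641 and 648 CPM in control, 609, 663 and 637 in RAS, 525, 532 and 504 in the knockdown, 537, 526 and 522 in the wild-type add-back and 505, 497 and 482 in the R298P add-back. Control and RAS overlapped (log2 -0.06, SE 0.06, adjusted p = 0.447), while all METTL14 siRNA libraries were below both. H3-3A made up 47.3% ± 1.64 of H3.3 tags in control and 55.0% ± 1.01 in RAS, so the order of the paired genes differed between the groups.

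H2AZ1 and H2AZ2 encode H2A.Z, a variant found around transcription start sites. H2AZ1 had 559, 564 and 569 CPM in control, 320, 280 and 275 in RAS, 276, 261 and 270 in the knockdown, 260, 257 and 244 in the wild-type add-back and 284, 293 and 269 in the R298P add-back. H2AZ2 had 354, 381 and 361 CPM in control, 193, 183 and 211 in RAS, 195, 195 and 212 in the knockdown, 207, 188 and 193 in the wild-type add-back and 206, 239 and 223 in the R298P add-back. Control stood well apart from all RAS-derived libraries for both. The falls with RAS were 1.93-fold for H2AZ1 (log2 -0.95, SE 0.07, adjusted p = 1.08e-13) and 1.87-fold for H2AZ2 (log2 -0.90, SE 0.08, adjusted p = 6.16e-12).

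H2AX, the variant that is phosphorylated at DNA breaks and the tested variant gene with a stem-loop, had 76.6, 73.6 and 68.2 CPM in control, 11, 13.3 and 14.3 in RAS, 15.2, 15.4 and 24.6 in the knockdown, 19.4, 13.9 and 14.7 in the wild-type add-back and 16.1, 18.2 and 13.0 in the R298P add-back. Control was high and the other groups were all low. The fall with RAS was 5.68-fold (log2 -2.51, SE 0.20, adjusted p = 1.05e-12), the largest among the variants.

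MacroH2A variants carry a large extra domain and are known in senescence-associated heterochromatin. MACROH2A1 had 117, 115 and 116 CPM in control, 120, 123 and 122 in RAS, 100, 95.2 and 111 in the knockdown, 113, 116 and 96.0 in the wild-type add-back and 99.4, 116 and 113 in the R298P add-back. The RAS libraries sat just above control without overlap, a difference that did not pass the test (log2 0.06, SE 0.10, adjusted p = 0.627). MACROH2A2 had 10.3, 14.5 and 10.8 CPM in control, 5.58, 6.18 and 9.09 in RAS, 6.91, 11.1 and 21.3 in the knockdown, 13.3, 16.5 and 10.7 in the wild-type add-back and 11.9, 11.1 and 10.5 in the R298P add-back. RAS was below control in every library and MACROH2A2 fell 1.71-fold (log2 -0.78, SE 0.32, adjusted p = 0.0489), a call that was lost under 7 of the alternatives, among them the fits without control library 2 or 3 or RAS library 1 or 2. H2AJ (log2 0.19, adjusted p = 0.617) and H3-5 (log2 -0.62, adjusted p = 0.631) were not called.

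**Figure D3:**
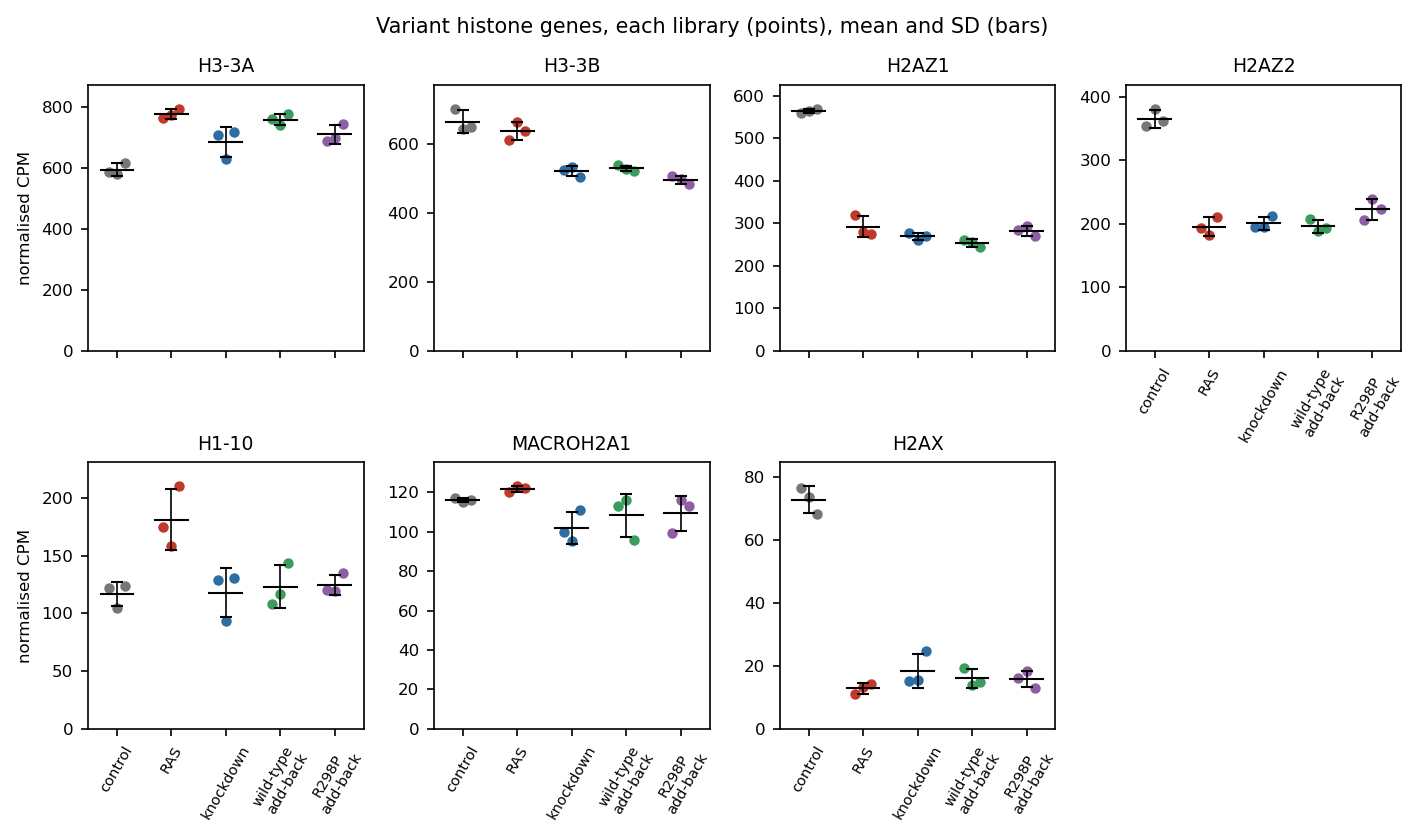
Normalised CPM (vertical axis, from 0) of 7 abundant variant genes in the 5 groups. Points are libraries, horizontal bars are means and whiskers are SD. H2AZ1, H2AZ2 and H2AX are highest in control, and H1-10 is highest in RAS.

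The calls with RAS were set beside the annotated 3′ ends. This division was made after the values were seen and has no test. The 10 tested replication-dependent genes with an annotated poly(A) signal had 5 called higher, 0 called lower and a median log2 change of 0.42. The 8 without one had 1 called higher, H2BC12, 7 called lower and a median of -3.15. Of all tested genes 24.0% were called higher and 21.9% lower. In 6 of these 8 the gene model ends at the stop codon, and that of H1-4 stops within the stem-loop. No signal could be found in such models, so for them the division records the annotation only. All 5 tested H1 genes of the clusters fall in the second group, so the division also separates families. Within H2A, HIST2H2AA3 and H2AC6, which have a signal, were higher and H2AC20, whose model ends at the stop codon, was lower, while H2AC11, which has a signal, was not called (log2 -0.06, adjusted p = 0.953). Of H4, H4C8 with a signal was higher and H4C3 without one was lower. H4C11, counted as having a signal although it stands before the stem-loop, was not called (log2 -0.29, adjusted p = 0.891). Of the 6 H2B genes 3 were higher and 0 lower. The variants did not divide this way. H2AX, with a stem-loop and no signal in its last 40 bases, fell, while MACROH2A1, also without a signal, was not called. Of the variants with a signal, H2AZ1, H2AZ2 and MACROH2A2 were lower and H3-3A and H1-10 were higher. H3-3B, H2AJ and H3-5, which have a signal as well, were not called.

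**Figure D4:**
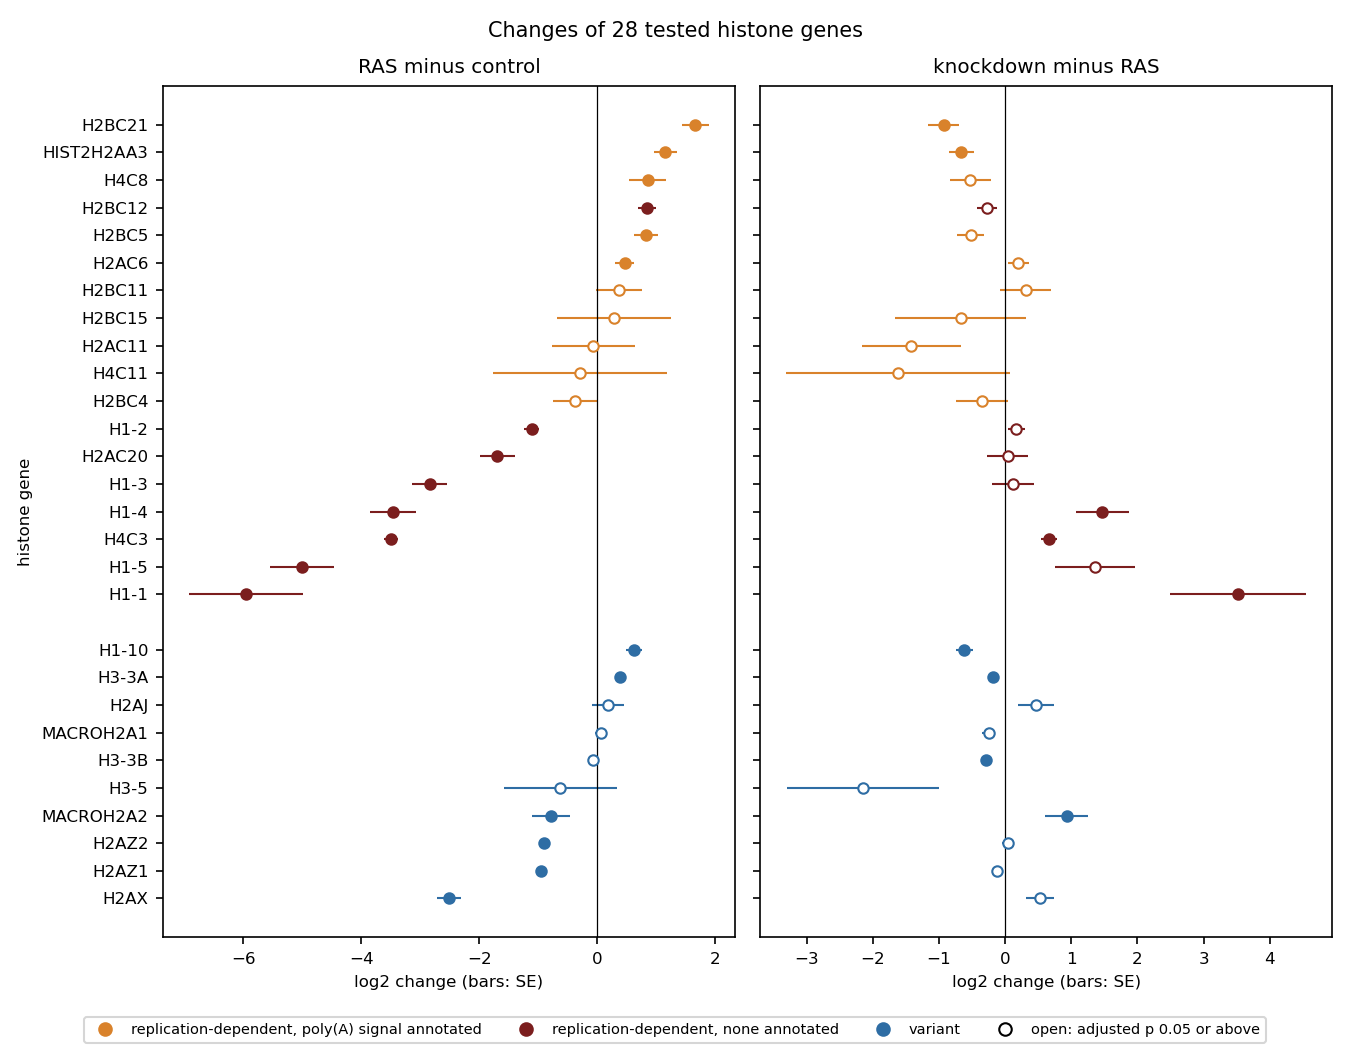
Log2 change (horizontal axis, bars are SE) of tested replication-dependent and variant histone genes, for RAS minus control on the left and knockdown minus RAS on the right. Filled points passed an adjusted p of 0.05. On the left the orange genes, which have an annotated poly(A) signal, run from -0.37 to 1.67, and the dark red genes without one run from -5.95 to 0.85. Most dark red genes have a model that ends at the stop codon, where no signal could be found.

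A pair of neighbours on chromosome 1 moved in opposite directions. H2BC21 (ENSG00000184678), described above, lies on the minus strand and H2AC20 (ENSG00000184260, formerly HIST2H2AC), an H2A gene, on the plus strand, and their RefSeq starts are separated by 235 bases. H2AC20 had 15.6, 21.2 and 20 CPM in control, 5.18, 6.18 and 6.24 in RAS, 4.27, 6.64 and 7.06 in the knockdown, 8.29, 9.13 and 9.96 in the wild-type add-back and 7.63, 5.62 and 5.68 in the R298P add-back. Control libraries were all above the rest, and the fall with RAS was 3.23-fold (log2 -1.69, SE 0.30, adjusted p = 1.24e-05), beside the 3.18-fold rise of H2BC21.

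The log2 ratio of H2BC21 to H2AC20 was -0.49, -1.13 and -0.95 in the control libraries and 2.78, 2.41 and 2.30 in RAS. H2AC20 thus had the higher level in each control library and H2BC21 in each RAS library. In the knockdown the ratio was 1.44, 1.67 and 1.42, in the wild-type add-back 1.68, 0.68 and 0.81, and in the R298P add-back 1.43, 2.16 and 1.60. Of the 50-base windows of the H2AC20 transcript, 30.5% also occur in HIST2H2AA3, which rose, so reads of the paralogs may have been divided between them in counting.

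The stretch between the 2 starts is printed because both genes are read from it. It is chr1:149886683-149886917 of GRCh38.p14 in the RefSeq promoter table, on the minus strand, so that it ends just before H2BC21 and begins just before the start of H2AC20 on the opposite strand. Capitals mark the CCAAT box, the TATAAA box and the octamer ATTTGCAT on either strand.
H2BC21 and H2AC20: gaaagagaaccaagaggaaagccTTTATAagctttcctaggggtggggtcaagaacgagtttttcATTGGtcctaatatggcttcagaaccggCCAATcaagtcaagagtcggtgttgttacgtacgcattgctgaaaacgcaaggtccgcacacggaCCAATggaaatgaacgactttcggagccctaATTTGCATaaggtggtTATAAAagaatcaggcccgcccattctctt
It holds 3 CCAAT, 2 TATAAA and 1 ATTTGCAT. A TATAAA stands near each end, one for each direction. A match of letters is a description and does not show that a factor binds.

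A second divergent pair with 245 bases between its starts, H2BC4 and H2AC6 on chromosome 6, is printed for comparison, from chr6:26123927-26124171 on the minus strand with the same marks.
H2BC4 and H2AC6: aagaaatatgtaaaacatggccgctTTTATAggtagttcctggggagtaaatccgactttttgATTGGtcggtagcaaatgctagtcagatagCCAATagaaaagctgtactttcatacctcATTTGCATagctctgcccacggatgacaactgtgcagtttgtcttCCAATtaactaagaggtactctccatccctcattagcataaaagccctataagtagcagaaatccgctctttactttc
It holds 3 CCAAT, 1 TATAAA and 1 ATTTGCAT. H2AC6 rose with RAS, as given above, while H2BC4 went from 10 ± 3.95 to 7.71 ± 1.67 CPM and was not called (log2 -0.37, SE 0.38, adjusted p = 0.454). In the third pair, H2BC11 and H2AC11, with 247 bases between starts, neither gene was called (log2 0.37 and -0.06, adjusted p = 0.475 and 0.953).

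**Figure D5:**
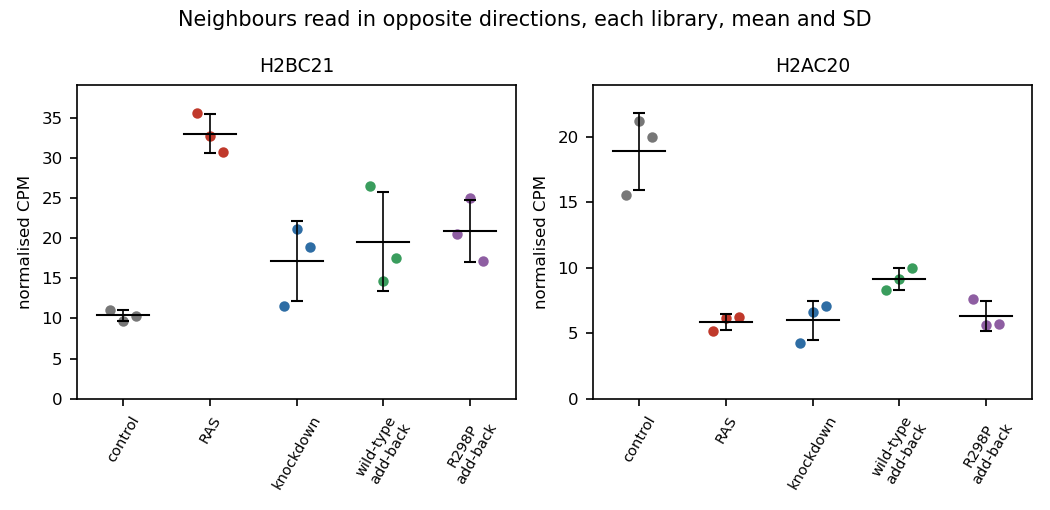
Normalised CPM (vertical axes, from 0) of H2BC21 and H2AC20, which share the stretch between their starts, in the 5 groups. Points are libraries, horizontal bars are means and whiskers are SD. From control to RAS the mean went from 10.4 to 33.0 for H2BC21 and from 18.9 to 5.87 for H2AC20.

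RefSeq promoters were found for 44 of the 48 members that are not pseudogenes, and for 17 of the 18 tested replication-dependent genes, 14 on chromosome 6 and 3 on chromosome 1. In the 250 bases before the start, CCAAT occurred in 15 of the 17, TATAAA in 13 and ATTTGCAT in 7, counted on both strands. These are not 17 separate sequences. The 3 divergent pairs above share 235 to 247 of the 250 bases, so a shared motif is counted for both genes. Of the 7 genes with ATTTGCAT, all but H2BC12 belong to these pairs. In 35116 promoters of the same length the shares were 32.0%, 10.7% and 1.63%. Of the tested variant genes with a promoter 6 of 9 held CCAAT, 4 TATAAA and 1 ATTTGCAT. Of the 6 genes called higher with RAS 5, 5 and 3 held the 3 motifs, and of the 6 called lower with a promoter 6, 4 and 1 did, numbers too small to compare. The ATTTGCAT among the lower genes, in H2AC20, is the same site that is counted for H2BC21 among the higher genes.

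METTL14 knockdown asks what the m6A methyltransferase subunit contributes once cells carry RAS. The knockdown cells also received the empty lentivirus and the labels name no lentivirus for the RAS group, so METTL14 siRNA and lentiviral infection cannot be told apart in this comparison. Of 18 replication-dependent genes 3 were called higher and 2 lower, and of 11 variant genes 1 was called higher and 4 lower. Among all genes 15.5% were called, 7.47% higher and 8.06% lower. The medians were -0.12 and -0.18 on the log2 scale. This comparison and the first share the RAS libraries, so an unusual value in them enters both with opposite signs.

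H4C3 rose 1.58-fold with the knockdown (log2 0.66, SE 0.12, adjusted p = 9.87e-05), from 47.5 ± 4.36 to 75.5 ± 12.8 CPM, against 536 ± 55.4 in control. H1-4 had 22.3, 18.6 and 18.8 CPM in control, 1.91, 1.5 and 1.96 in RAS, 6.10, 5.09 and 3.94 in the knockdown, 4.65, 4.64 and 7.33 in the wild-type add-back and 4.13, 1.53 and 2.84 in the R298P add-back. Knockdown libraries were all above RAS, and H1-4 rose 2.77-fold (log2 1.47, SE 0.40, adjusted p = 0.00929). The call was lost with limma-voom and when only the 2 groups were fitted.

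H1-1 had 5.16, 10.7 and 8.15 CPM in control, 0.136, 0 and 0.178 in RAS, 0.813, 0.463 and 3.12 in the knockdown, 1.62, 0.449 and 3.19 in the wild-type add-back and 0.954, 1.36 and 1.42 in the R298P add-back. The knockdown libraries were above RAS, and library 3 was the highest of them. The tags numbered 26 against 2, a ratio of 13.6 with a 95% exact interval of 3.4 to 118 (adjusted p = 0.0158). That call was lost with limma-voom, without RAS library 2 and without knockdown library 3. When only the 2 groups were fitted, H1-1 did not pass the filter and was not tested. In the full fit it passed through the control libraries, which are outside this comparison. H1-5 was 1.71 ± 0.584 CPM against 0.621 ± 0.299 and was not called (adjusted p = 0.139).

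Among the genes called lower with the knockdown were H2BC21, HIST2H2AA3, H1-10, H3-3B and H3-3A. H2BC21 fell 1.91-fold (log2 -0.93, SE 0.23, adjusted p = 0.00320) and HIST2H2AA3 1.58-fold (log2 -0.66, SE 0.19, adjusted p = 0.0186), the latter losing its call without RAS library 3 or knockdown library 2. H1-10 fell 1.54-fold (log2 -0.62, SE 0.13, adjusted p = 0.00125). H3-3B fell 1.22-fold (log2 -0.29, SE 0.06, adjusted p = 6.66e-04). H3-3A fell 1.13-fold (log2 -0.18, SE 0.06, adjusted p = 0.0403), but its call was lost under 7 alternatives, among them the fits without RAS library 1, 2 or 3 or knockdown library 2.

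MACROH2A2 was called higher by 1.90-fold (log2 0.93, SE 0.32, adjusted p = 0.0461), although its libraries overlapped between the groups, and the call was lost under 6 alternatives, among them the fits without RAS library 1 or 2 or without knockdown library 3, its highest. H2AZ1 (log2 -0.12, adjusted p = 0.292) and H2AZ2 (log2 0.04, adjusted p = 0.807) were not called. H2AX was above RAS in every knockdown library but did not pass (log2 0.53, SE 0.21, adjusted p = 0.0840). H1-2 held 83.8% ± 1.31 of the tags of H1-1 to H1-5 in the knockdown, against 88.7% ± 3.09 in RAS and 60.9% ± 3.65 in control, with the knockdown libraries apart from control and reaching the lowest RAS library.

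In the division by annotated 3′ ends, the 10 genes with a signal had 0 called higher and 2 lower with the knockdown, with a median of -0.60, and the 8 without one had 3 higher and 0 lower, with a median of 0.41. Among all genes 7.47% were called higher and 8.06% lower. This division, made after the values were seen, has no test. The lower median includes genes with few tags: H4C11 (log2 -1.62, SE 1.69), H2AC11 (log2 -1.42, SE 0.75) and H2BC15 (log2 -0.67, SE 0.99). Of the 3 higher genes, H1-4 and H1-1 lost their calls with limma-voom. In 6 of those 8 the model ends at the stop codon, so no signal could be found. The keratin genes moved alongside here too: KRT18 stood at 46.8 ± 1.95 CPM in the knockdown (log2 1.12, adjusted p = 1.72e-07) and KRT19 at 24.2 ± 7.9 (log2 1.23, adjusted p = 5.99e-04), and their part in the histone differences was not tested. In bulk samples, fewer cells of one kind and less RNA per cell cannot be told apart.

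METTL14 add-back asks whether wild-type or R298P METTL14 shifts the knockdown values. No replication-dependent and no variant histone gene was called by edgeR in the wild-type add-back against vector, where 0.621% of all genes were called, or in the R298P add-back against vector, where 1.09% were. The same held between the add-backs, where 0.0222% of genes were called. At an unadjusted p under 0.05 edgeR gave 1 replication-dependent and 1 variant gene for wild-type against vector, 1 and 0 for R298P against vector, and 2 and 2 for wild-type against R298P. About a fraction of 0.05 of genes would pass that threshold without any difference. The share of all genes that passed it is not given here, so these counts are not read as a result. DESeq2 and limma-voom also called 0 members of either class after adjustment. Both add-back comparisons share the knockdown libraries.

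The genes under that unadjusted threshold were H1-2 for wild-type against vector (log2 -0.36, SE 0.13, adjusted p = 0.363) and H3-3A (log2 0.15, SE 0.06, adjusted p = 0.539). For R298P against vector it was H1-4 (log2 -0.81, SE 0.39, adjusted p = 0.526). Between wild-type and R298P they were H1-4 (log2 0.95), H1-3 (log2 0.77), H2AZ2 (log2 -0.18) and H2AZ1 (log2 -0.15), with adjusted p from 0.980 to 1. H1-4 in the R298P add-back was 2.84 ± 1.30 CPM, between the 1.79 ± 0.253 of RAS and the 5.04 ± 1.08 of the knockdown. H2BC21 stood at 19.5 ± 6.17 and 20.9 ± 3.92 CPM in the wild-type and R298P add-backs, against 17.2 ± 5 in the knockdown (log2 0.16, SE 0.23, and 0.28, SE 0.23).

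Summed over genes, replication-dependent tags were 1166, 1167 and 1068 CPM in control, 693, 744 and 800 in RAS, 593, 704 and 688 in the knockdown, 643, 630 and 627 in the wild-type add-back and 651, 673 and 577 in the R298P add-back. Without H4C3 the sum was 598 ± 19.3 in control and 698 ± 57.5 in RAS, so the direction of the difference in the total rested on that gene. Without H2BC12 it was 904 ± 82.0 and 334 ± 22.1. Variant tags summed to 2587 ± 23.4 CPM in control, 2376 ± 47.8 in RAS, 2041 ± 76.4 in the knockdown, 2111 ± 25.5 in the wild-type add-back and 2085 ± 30.5 in the R298P add-back. Replication-dependent genes thus held 30.5% ± 1.21 of the tags of both classes in control and 23.1% to 24.5% on average in the other groups.

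Members below the filter were seen in few tags. H2AC21 had 30 tags in control and 5 in RAS, H3C4 had 7 and 12, and H4C16 had 3 and 16. H3C14 and H3C15, near-identical copies, had the same count in all 15 libraries, 7 tags in control and 3 in RAS, so they count as 1 measurement. The pseudogene H2BC20P, which has a long transcript and shares 9.2% of its 50-base windows with another member, had 6.88, 5.44 and 4.82 CPM in control, 19.2, 13.9 and 19.1 in RAS, 6.71, 11.3 and 9.68 in the knockdown, 7.07, 12.9 and 11.8 in the wild-type add-back and 12.6, 10.2 and 7.91 in the R298P add-back. RAS was above every other library (log2 1.60, adjusted p = 3.94e-05 with RAS, and log2 -0.91, adjusted p = 0.0292 with the knockdown). The H3P6 sequence lies wholly within H3-3A transcripts at a window of 50 bases, so its tags cannot be told apart from those of H3-3A, and it was not called.

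Genes of the machinery around the histone genes were followed in the same fits. Of 32 genes for histone mRNA transcription, 3′ processing and decay, 4 were called higher and 12 lower with RAS (median log2 -0.24), a share near the 45.9% called among all genes. SLBP, which binds the stem-loop, went from 34.9 ± 8.12 CPM in control to 16 ± 0.692 in RAS (log2 -1.13, adjusted p = 4.04e-05) and was 20.9 ± 5.13 in the knockdown (adjusted p = 0.252). NPAT, the coactivator of the histone clusters, rose from 29 ± 4.27 to 42.8 ± 4.96 CPM (log2 0.56, adjusted p = 0.00503), and CASP8AP2, a component of the nuclear bodies at these clusters, was not called (log2 0.10, adjusted p = 0.677).

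CCNE2, a cyclin of S phase entry, fell from 158 tags in control to 7 in RAS (log2 -4.33, adjusted p = 1.17e-04). The other cyclin E gene, CCNE1, was not called (log2 0.21, adjusted p = 0.578). The kinase CDK2 (log2 -1.35) and the spliceosomal SNRPF (log2 -1.21) fell, while POU2F1, which binds the octamer, rose (log2 1.04, adjusted p = 2.70e-05). With the knockdown 2 of the 32 were higher and 1 lower, a share below the 15.5% called among all genes: NCBP1, a cap-binding subunit (log2 0.73, adjusted p = 0.00403), SRRT (log2 0.36, adjusted p = 0.0198) and CDK2 (log2 -0.98, adjusted p = 7.17e-11). The 40 tested S phase genes had 0 higher and 33 lower with RAS (median -2.17), and 9 higher and 1 lower with the knockdown (median 0.39). Of all genes 24.0% were higher and 21.9% lower with RAS, and 7.47% higher and 8.06% lower with the knockdown. MKI67, a proliferation marker, stood at 284 ± 19.6 CPM in control, 10.3 ± 3.44 in RAS and 41.0 ± 3.47 in the knockdown. With RAS these values fell alongside H4C3 and H1-1 to H1-5. With the knockdown H4C3, H1-4 and H1-1 rose, whereas H1-2 (log2 0.17, adjusted p = 0.442), H1-3 (log2 0.12, adjusted p = 0.878) and H1-5 (adjusted p = 0.139) were not called. The part of S phase genes in the histone results was not tested.

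Among 33 tested histone chaperones and exchange factors 4 were higher and 22 lower with RAS (median -0.72), and 3 were higher and 3 lower with the knockdown. Of all genes 45.9% were called with RAS and 15.5% with the knockdown, the latter near the share in this list. ATRX and DAXX, which deposit H3.3 at repeats, rose (log2 1.16 and 0.62, adjusted p = 5.18e-16 and 5.92e-06), as did UBN2 of the H3.3 chaperone complex HIRA (log2 1.35). Of that complex UBN1 (log2 -0.33, adjusted p = 0.00224) and CABIN1 (log2 -0.48, adjusted p = 0.0033) fell, and HIRA itself was not called (log2 0.89, adjusted p = 0.102). ASF1B, a chaperone of newly made H3 and H4, fell (log2 -2.90, adjusted p = 9.62e-07). HJURP, the chaperone of the centromeric histone CENPA, fell with RAS (log2 -4.29) and rose with the knockdown (log2 1.30, adjusted p = 5.32e-04). CENPA, outside the naming rule, had 271 tags in control, 1 in RAS and 21 in the knockdown. In the R298P add-back HJURP was lower than with vector (log2 -1.05, adjusted p = 0.0382), the single call in this list in that comparison.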

How the data were processed

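Tags were counted in 15 QuantSeq 3′ libraries of IMR90 cells, 5 groups of 3. The authors deposited whole-number counts per Ensembl gene, which sum to 4917661 to 7763084 per library. Bowtie2, RSEM 1.2.12 and the hg19 build are named in the submitters' processing notes without their roles, and library preparation is given per the labels' protocols. No source at hand states the gene annotation or strand setting, so overlapping or antisense genes and near-identical histone copies may share reads. An oligo-dT primer can also start in A-rich sequence, so a tag alone does not show a poly(A) tail.

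Symbols were found for 52301 of 57736 identifiers. Another 36 symbols that match the naming rule have identifiers that are not among those of the count table and are not analysed here. Members, gene lists and the division by annotated 3′ ends were chosen with earlier results of these data known. Named members were those passing the filter, with every library given for the 6 replication-dependent and 8 variant genes of highest mean CPM and for others called between RAS groups. H2AC20 lies outside that rule, and its libraries are given for its pair with H2BC21, which was picked with the values known. Values of 1 variant gene are not reported here, although class counts and sums include it. From the related lists, up to 3 called genes with the largest change per comparison could be named, plus SLBP, CASP8AP2, NPAT and CENPA. POU2F1, ATRX, DAXX, HIRA, UBN1, UBN2, CABIN1, KRT18, KRT19, HRAS and CCNE1 were named after their values were seen.

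Counts were fitted for all 13516 genes passing filterByExpr with edgeR 4.0.16 (TMM scaling, robust quasi-likelihood, 5 group means, 10 residual degrees of freedom) in R 4.3.3, with Benjamini-Hochberg adjustment and a threshold of 0.05. CPM are scaled by TMM, and 1 tag is worth 0.136 to 0.203 CPM. The biological coefficient of variation was 16.7%. The fit was tested on simulated data. Alternatives were DESeq2 1.42.0 (its size factors and its test), limma 3.58.1 voom, upper-quartile scaling, no filter, only the compared groups, a replicate block, and leaving out each library. Same-numbered libraries did not deviate together (30 pairs, r from -0.0541 to 0.0681), so libraries were treated as unpaired. No library was a copy of another.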

Additional observations from a re-analysis of the deposited data

How the results depend on the processing

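The counts of called histone genes with RAS held within 1.5 times under all alternatives: 13 replication-dependent genes in every setting that kept all libraries, and 11 to 13 when each library was left out in turn, and 7 variant genes, with 6 to 7 both under the other settings and when each library was left out. The knockdown counts were less stable. The 5 replication-dependent genes became 3 with limma-voom and 3 when only the 2 groups were fitted, and 4 to 5 when each library was left out. The fit of only the 2 groups tested 14 replication-dependent genes instead of 18, H1-1 not among them, and H1-4 lost its call in it. It tested 10 variant genes instead of 11. The 5 variant genes became 3 when only the 2 groups were fitted, and 3 to 6 when each library was left out, with 3 without RAS library 1 and 3 without RAS library 2. The causes of the other changes were not tested. The add-back comparisons had 0 called members under every alternative, 0 to 0 when each library was left out.

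Replicate numbers were not taken to pair the libraries, since no correlation between same-numbered libraries exceeded 0.0681, although 8 of 15 libraries correlated best with their own number, a hint in that direction from the data and not from the design. With the replicate block the knockdown called 5 replication-dependent and 4 variant genes, MACROH2A2 being lost. No called result for a single member changed direction. Among 1863 values under alternatives, 98 took the opposite sign, none of them called: 8 with RAS (H2AC11, H2AJ, H2BC15 and H4C11), 5 with the knockdown (H1-3 and H2AC20) and the others in the add-back comparisons. H4C11 went from -0.29 to 0.41 without control library 3, H2AJ from 0.19 to -0.12 without control library 1 and H2BC15 from 0.29 to -0.24 with limma-voom. Of these results under each alternative, 1828 kept their side of the threshold, 32 lost their call and 3 gained one (H2AX without knockdown library 1, H2BC5 without knockdown library 2 and H2BC12 with no filter, all in the knockdown comparison). At 0.136 to 0.203 CPM per tag, genes such as H1-1, H2AC11, H2BC15 and H4C11 rest on few tags, and differences among them were not detectable unless large.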
